A study of Homo sapiens with 6 samples.

Results

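The genes described here are 75 genes of human chromosome 14, listed as protein-coding, that differed in RNA level between a gefitinib-resistant lung cancer line and its parent. They were chosen by 2 criteria: a locus on chromosome 14 and the entry protein_coding in the deposited expression table. Gene symbols beginning with ZNF or SLC were left out, as were FOS, FOXA1, ABCD4 and MMP14. The table lists 1705 genes in all, of which 93 are on chromosome 14 and 83 of those are coding. The 75 genes were compared in 3 stretches, by the start of the locus in the table: 34 genes at 70 to 79 Mb, 24 genes past 102000000 bp, called the distal stretch here, and 17 genes elsewhere on the chromosome.

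The parental group was PC9, an epithelial lung adenocarcinoma line with a deletion in exon 19 of EGFR, the epidermal growth factor receptor. The resistant group was PC9-GR, which carries the same deletion and was selected by raising gefitinib, an inhibitor of the EGFR kinase, in steps from 0.5 to 10 µM. PC9-GR was kept at 10 µM and then grown for 7 days without the drug before RNA was taken, and the labels state no drug for PC9. Both lines grew in RPMI-1640 with serum, and each gave 3 libraries from independent cultures. Whether PC9-GR is a clone or a pool is not stated in the labels, and it is 1 derivative of 1 line, so the 3 cultures are replicates of that derivative and not of resistance.

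Chromosome 14 is acrocentric, with its coding genes on the long arm. Its distal part carries the gene of HSP90AA1, the stress-inducible cytosolic HSP90 chaperone, which folds many kinases including mutant forms of EGFR. Neighbours on the arm have little in common by function: the same stretches carry genes of cholesterol export from lysosomes, of the tricarboxylic acid cycle, of mismatch repair and of translation initiation. Genes of such different roles are not a known pathway, and position is what unites them here.

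The table is a selection, which limits every count below. All 1705 listed genes have an absolute log2 ratio of at least 1.0002 and a p-value of at most 0.04965 in the authors' deposited table, from the same 6 libraries. A listed gene therefore had to differ between PC9 and PC9-GR, and neither the direction nor the size of a difference given here is independent support for it. Values are FPKM, sequenced fragments scaled by transcript length and library size, so levels can be compared between genes. The table gives no read counts, so the sequencing depth of each library is unknown. Of the markers looked for, 2 of 11 epithelial genes are listed (CLDN1 and OVOL1), 0 of 5 lung adenocarcinoma genes, 1 of 6 haematopoietic genes (LYZ) and 0 of 7 fibroblast and endothelial genes. CLDN1, a tight junction protein, measured 86.8 ± 11.0 FPKM in PC9 and 26.0 ± 5.02 in PC9-GR (SD, n = 3), OVOL1 7.67 ± 0.185 and 2.23 ± 0.282, and LYZ 1.09 ± 0.459 and 0.142 ± 0.125. The remaining markers were not analysed here, so the labelled cell type could be checked only in part, and the part of these markers in the differences below was not tested. In RNA from a whole culture, fewer cells that express a gene and less RNA per cell cannot be told apart.

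Among the listed genes, the direction of the difference went with the stretch. All 34 genes at 70 to 79 Mb and all 24 genes of the distal stretch were lower in PC9-GR, and for each of these 58 genes the highest PC9-GR library lay below the lowest PC9 library. Outside these stretches 13 of 17 genes were higher in PC9-GR and 4 were lower, again with no overlap between the groups. Over the whole table, 46.6% of listed genes were lower without overlap and 48.3% were higher without overlap. Of all 1375 listed coding genes, 652 were lower and 723 were higher. The genes were chosen on this contrast, and the borders of the stretches were set with earlier results of these data known. These counts are therefore a description, and nothing is read from their distance to the shares of the table.

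**Figure D1:**
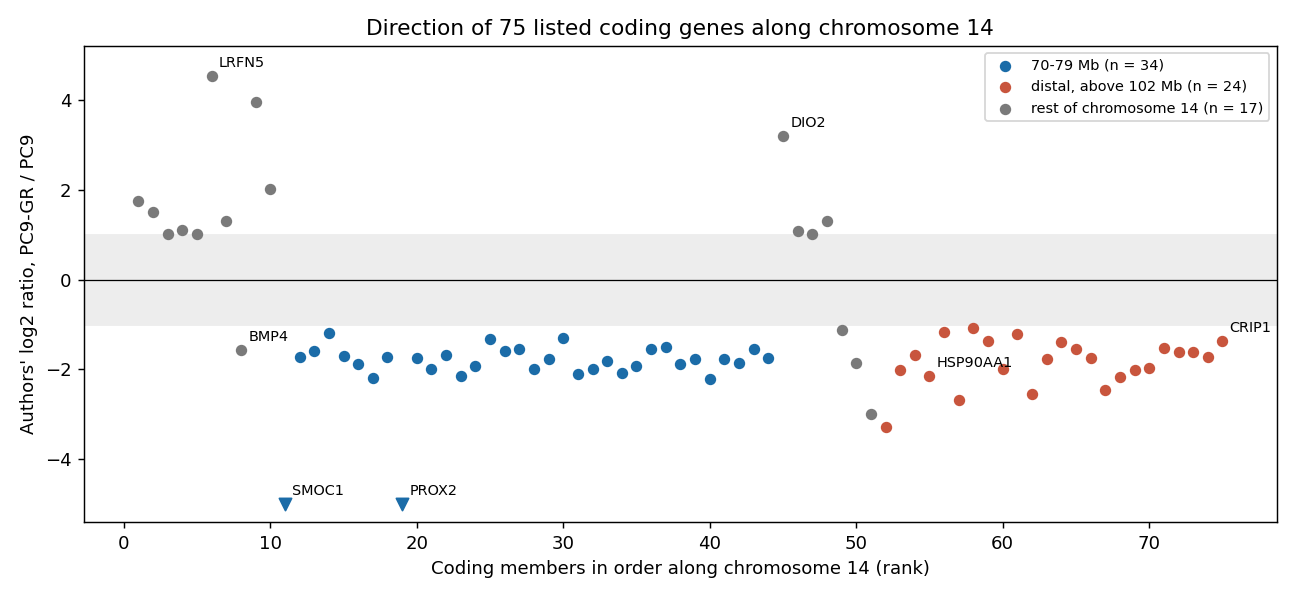
Authors' log2 ratio of PC9-GR over PC9 (vertical axis) for the 75 coding genes of chromosome 14 in the order of their table loci (horizontal axis, rank), coloured by stretch. The band from -1 to 1 is empty because the table lists no gene there. SMOC1 and PROX2, at the table's floor in PC9-GR libraries, are drawn as triangles at the lower edge (ratios -13.79 and -6.73). All 58 genes of both stretches lie below 0, and 13 of the 17 others lie above it.

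In limma's moderated test on log2(FPKM + 1) over the 1207 listed genes that reached 1 FPKM in at least 3 of the 6 libraries, 56 of the 67 tested genes of the set fell and 11 rose, at a Benjamini-Hochberg adjusted p under 0.05. Over all tested genes 51.3% fell and 48.4% rose. Only 4 of the 1207 were called in neither direction, so a call adds little to a gene's being listed. At 70 to 79 Mb 30 of 30 tested genes fell, and in the distal stretch 23 of 23 fell. Elsewhere 11 of 14 tested genes rose and 3 fell. The 8 genes below the filter were SMOC1, PROX2, PGF and NOXRED1 at 70 to 79 Mb, CRIP1 in the distal stretch, and LRFN5, C14orf37 and BDKRB2 elsewhere, and they are given by their values only.

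The 34 genes at 70 to 79 Mb run from SMOC1 to ADCK1, but not evenly. In the gene order of GENCODE 29, which was used for order only because the build of the table is not named, 55 coding genes lie from ALDH6A1 to ADCK1. Of these, 34 (61.8%) are in the table, all lower in PC9-GR, when ABCD4 and FOS are counted too. Before this run, SMOC1 and TTC9 stand apart with 2 of 9 genes listed, and the 27 coding genes between TTC9 and ALDH6A1, from MAP3K9 to BBOF1, are all unlisted. TTC9 was named after its values were seen, as the end of that gap. The ends of the runs, here and below, were placed on listed genes beside the gaps. The shares inside the runs and in the gaps therefore depend on that choice.

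In the distal stretch the main run of listed genes was denser, but over the whole stretches the shares were close. From SMOC1 to ADCK1, 36 of 91 coding genes (39.6%) are in the table, and from PPP2R5C to CRIP1 23 of 54 (42.6%). From PPP2R5C to ZFYVE21, 22 of 26 coding genes (84.6%) are in the table, all lower in PC9-GR. The 4 unlisted genes are ZNF839, CINP, LBHD2 and EXOC3L4, whose levels were not analysed here. Past ZFYVE21 the next 27 coding genes, from PPP1R13B to CRIP2, are unlisted, and CRIP1, a small LIM-domain protein, is listed alone beyond them. RP11-796G6.2, which opens this stretch in the table, and RP11-47I22.3 elsewhere on the chromosome are coding in the table but are not coding genes of chromosome 14 in GENCODE 29. Their RefSeq symbols are LINC00239 and LINC03033.

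The other parts of the chromosome were sparsely listed. Before SMOC1, 14 of 359 coding genes (3.9%) are in the table, 2 of them lower in PC9-GR. Between ADCK1 and PPP2R5C the table lists 8 of 106 (7.55%), 3 of them lower. Over chromosome 14 as a whole 81 of 613 coding genes (13.2%) are listed, and over all chromosomes 1342 of 19969 (6.72%). The nearest genes of the set outside the stretch at 70 to 79 Mb, RP11-47I22.3 before it and DIO2 after it, were both higher in PC9-GR. BDKRB2, the nearest gene of the set before the distal stretch, was lower. SLC25A29, a coding gene left out of the set, lies between BDKRB2 and that stretch and was higher in PC9-GR.

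**Figure D2:**
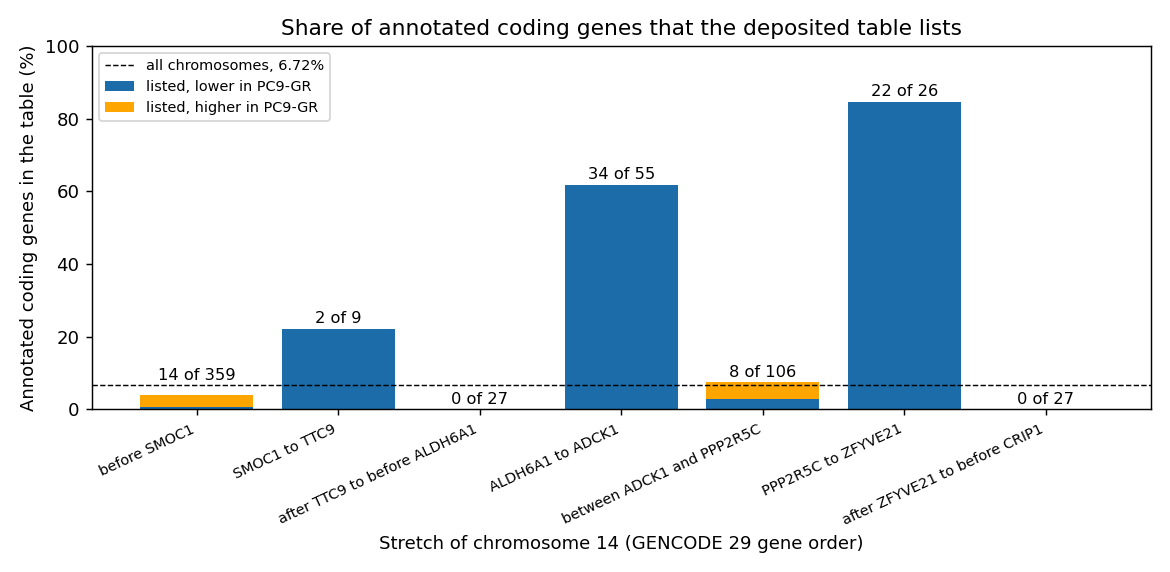
Share of annotated coding genes that the deposited table lists (vertical axis, percent), in 7 stretches of chromosome 14 in GENCODE 29 order, with the number listed above each bar. Blue is listed and lower in PC9-GR, orange listed and higher, and the dashed line is the share over all chromosomes, 6.72%. The share is 61.8% from ALDH6A1 to ADCK1 and 84.6% from PPP2R5C to ZFYVE21, with 0 of 27 in the gap beside each. The borders were placed on listed genes beside the gaps, so these shares depend on that choice.

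Both stretches were expressed well in the parental cells. The median gene at 70 to 79 Mb measured 24.5 FPKM in PC9 and 7.77 in PC9-GR, and the median gene of the distal stretch 56.2 and 15.7. In the rest of chromosome 14 the medians were 2.12 and 4.28 FPKM, and over all listed genes 1.57 and 2.08. All listed coding genes with a lower ratio had medians of 7.59 and 2.58 FPKM. Those of chromosome 18 had medians of 21.5 and 8.09, close to the levels at 70 to 79 Mb. Median levels on the log2(FPKM + 1) scale at 70 to 79 Mb were 4.66, 4.66 and 4.69 in the PC9 libraries and 3.0, 3.23 and 3.15 in the PC9-GR libraries. In the distal stretch they were 5.7, 5.88 and 5.91 against 4.15, 4.06 and 4.08. The spread between libraries of one line was small beside the distance between the lines in both stretches.

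**Figure D3:**
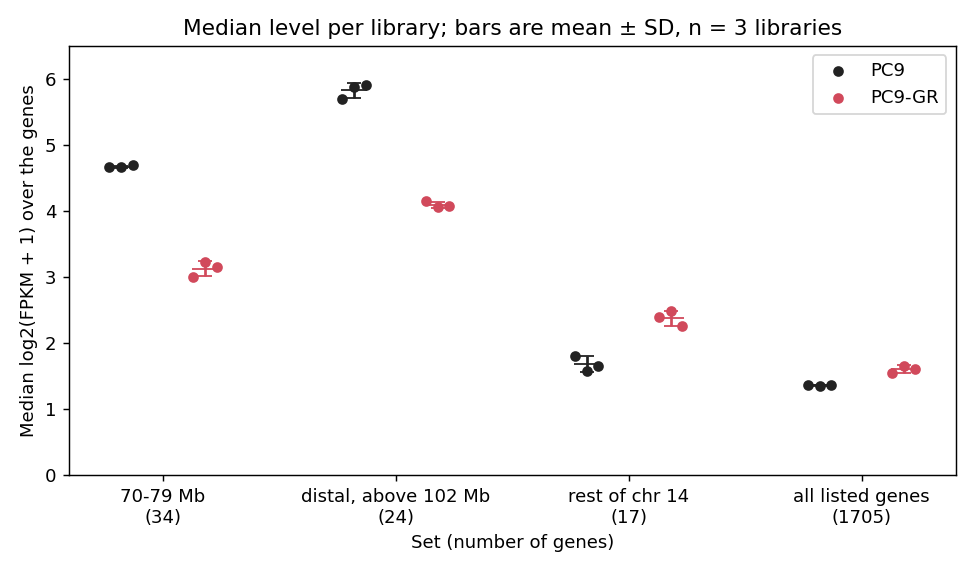
Median log2(FPKM + 1) over the genes of each set (vertical axis) in each library (points), with the mean and SD of 3 libraries per group. In both stretches all 3 PC9 libraries lie above all 3 PC9-GR libraries, and in the rest of chromosome 14 and over all 1705 listed genes they lie below.

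The median difference of PC9-GR minus PC9 on the log2(FPKM + 1) scale was -1.64 at 70 to 79 Mb, -1.67 in the distal stretch and 0.78 elsewhere, beside 0.29 over all listed genes. This scale understates the change of low genes. When all libraries were scaled to the same total of listed FPKM the medians were -0.91, -0.91 and 1.34, so the size of the difference depended on how the libraries were scaled while its direction did not. The listed genes summed to 28346 to 30541 FPKM in PC9 libraries and to 16705 to 17114 in PC9-GR libraries, a gap that this scaling removes. The 75 genes alone made up 34.3% to 35.2% of the listed FPKM in PC9 and 15.2% to 18.1% in PC9-GR.

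Summed over its genes, the stretch at 70 to 79 Mb gave 3065.4 ± 101.3 FPKM in PC9 and 856.7 ± 30.4 in PC9-GR (SD, n = 3), 3.58-fold lower. In the distal stretch the sum went from 7143.5 ± 300.1 to 1752.6 ± 203.3 FPKM, 4.08-fold lower. HSP90AA1 dominates that sum, and without it the values were 2059.1 ± 102.3 and 607.3 ± 38.5, 3.39-fold lower. Elsewhere the sum was 93.9 ± 7.9 in PC9 and 259.8 ± 19.6 in PC9-GR, 2.77-fold higher. Without HSP90AA1, the sums of both stretches thus differed by folds of similar size.

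Single genes at 70 to 79 Mb kept close to that fold. Among the 32 genes above the table's floor, the ratio of mean FPKM ran from 2.26-fold lower (LIN52) to 4.67-fold lower (SPTLC2), with a median of 3.4 and quartiles of 3.01 and 3.81. The ratio was between 3 and 4 for 20 of them (62.5%), under 3 for 6 and over 4 for 6. In the distal stretch the 24 ratios had nearly the same median, 3.34, but were wider, from 2.14 (TECPR2) to 9.9 (RP11-796G6.2), with quartiles of 2.82 and 4.15 and 9 of 24 between 3 and 4 (37.5%). The 632 listed coding genes of all chromosomes that were lower and above the floor had a median of 2.71 and quartiles of 2.29 and 3.79, with 19.8% between 3 and 4. On chromosome 18, 85 of 92 listed coding genes were lower. The 82 of them above the floor had a median of 2.64 and quartiles of 2.36 and 3.08, with 13.4% between 3 and 4. The band from 3 to 4 lies around the median at 70 to 79 Mb, so it does not compare the spread of sets with other medians. The interquartile range of the authors' log2 ratio was 0.4 for the 85 lower genes of chromosome 18 and 0.38 at 70 to 79 Mb. No test of these spreads was run, since the genes were listed on the same ratio.

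The ratio showed no clear order by position or strand. In the authors' deposited table the log2 ratios at 70 to 79 Mb had a median of -1.77 (interquartile range 0.38), and in the distal stretch -1.73 (0.57). Medians for genes on the plus and minus strand were -1.76 (n = 16) and -1.83 (n = 18) at 70 to 79 Mb, and -1.72 (n = 17) and -1.77 (n = 7) in the distal stretch. Across genes, Spearman's rank correlation between position and the authors' log2 ratio was -0.11 (n = 32) and 0.17 (n = 24), and between PC9 level and that ratio -0.35 and -0.12. Genes of the same 6 libraries, some of them sharing a locus, are not independent points, so these are descriptions. Just inside the table's threshold were EGLN3, TGM1 and PTPN21, with authors' log2 ratios of 1.02 each, and on the lower side TECPR2 at -1.08 in the authors' deposited table.

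Some values in these stretches are uncertain because loci overlap. The 75 genes fall on 61 distinct loci of the table, and 25 genes share a locus with another listed gene. The largest shared locus holds APOPT1, BAG5, KLC1, RP11-73M18.2 and XRCC3, and another holds HSP90AA1, MOK and WDR20. Further pairs are AMN with CDC42BPB, ISCA2 with NPC2, PROX2 with YLPM1, ACYP1 with ZC2HC1C, NEK9 with TMED10, GSTZ1 with POMT2, AHSA1 with VIPAS39 and SLIRP with SNW1. A table locus can cover more than 1 gene, and the division of reads among overlapping genes is not given in the sources used here. Both genes that share the locus of HSP90AA1 differed by unlike folds: MOK was 2.24-fold lower and WDR20 6.27-fold lower.

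Because these genes moved together by position, their promoters were read from RefSeq (GRCh38.p14), and 4 are shown: those of the most abundant gene of the distal stretch (HSP90AA1), of its cochaperone at 70 to 79 Mb (AHSA1), of a distal gene with a large fold (CKB), and of the gene that rose most in absolute level elsewhere (DIO2). Each is the 250 bases before the start of the transcript, 5′ to 3′ in the direction of transcription, with capitals for any match to the 6 motifs listed after the sequences. The HSP90AA1 promoter lies at chr14:102087045-102087294 (minus strand), CKB at chr14:103522831-103523080 (minus), AHSA1 at chr14:77457843-77458092 (plus) and DIO2 at chr14:80211505-80211754 (minus).
HSP90AA1: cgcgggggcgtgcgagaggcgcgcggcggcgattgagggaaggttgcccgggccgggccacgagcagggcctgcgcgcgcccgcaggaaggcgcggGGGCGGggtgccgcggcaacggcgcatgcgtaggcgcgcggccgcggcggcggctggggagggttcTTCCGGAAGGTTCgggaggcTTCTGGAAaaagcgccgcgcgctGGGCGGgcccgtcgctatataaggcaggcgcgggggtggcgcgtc
AHSA1: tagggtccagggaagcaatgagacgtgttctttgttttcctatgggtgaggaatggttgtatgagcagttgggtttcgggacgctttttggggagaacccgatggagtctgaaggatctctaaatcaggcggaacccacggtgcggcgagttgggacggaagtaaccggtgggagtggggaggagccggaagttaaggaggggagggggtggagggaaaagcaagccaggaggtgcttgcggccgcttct
CKB: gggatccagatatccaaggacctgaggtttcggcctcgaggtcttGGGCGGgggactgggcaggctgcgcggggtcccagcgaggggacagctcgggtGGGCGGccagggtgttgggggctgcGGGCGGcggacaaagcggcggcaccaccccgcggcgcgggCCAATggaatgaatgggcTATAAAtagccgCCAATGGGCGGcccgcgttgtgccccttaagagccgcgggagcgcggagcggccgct
DIO2: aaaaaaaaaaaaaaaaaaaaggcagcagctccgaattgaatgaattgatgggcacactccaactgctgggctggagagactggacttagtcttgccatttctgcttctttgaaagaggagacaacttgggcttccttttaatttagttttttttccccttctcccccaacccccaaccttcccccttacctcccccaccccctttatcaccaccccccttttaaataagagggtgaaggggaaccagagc
The motifs were the GC box GGGCGG, the TATA box TATAAA, the CCAAT box, the AP-1 site TGACTCA, the E-box CACCTG and the heat shock unit, TTCNNGAA or GAANNTTC, each searched on both strands. HSP90AA1 has 2 GC boxes and 3 heat shock units, some of which overlap. CKB has 4 GC boxes, 1 TATA box and 2 CCAAT boxes, 1 of which abuts a GC box. AHSA1 and DIO2 have no match in these windows.

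Over all members, 70 of 75 genes were matched to 90 promoters of 300 bases, 250 before and 50 after the start. Of these promoters 39 are at 70 to 79 Mb, 27 in the distal stretch and 24 elsewhere. Median GC content was 64.0% at 70 to 79 Mb, 72.3% in the distal stretch and 65.0% elsewhere, beside 58.7% for the 35116 promoters of the reference table. A GC box was in 66.7% of promoters at 70 to 79 Mb, in 96.3% in the distal stretch and in 50% elsewhere, against 45% of all promoters. Heat shock units were no more common than in the reference: 10.3%, 7.41% and 8.33% of promoters in the 3 stretches, against 13.5%. An AP-1 site was in 2.56%, 3.7% and 4.17%, against 4.95%, and the E-box in 17.9%, 25.9% and 12.5%, against 20.6%. The string TATAAA was in 2.56% and 3.7% of promoters in the stretches, those of SMOC1 and CKB, against 11.5%. Shares of this size rest on very few promoters. Only this exact string was counted, so similar strings, such as TATATAAG in the HSP90AA1 promoter shown above, are not matches. Of the 1375 listed coding genes 1015 were matched, so a comparison with the whole table is partial. The promoters of those matched had a median GC content of 63.0%, close to that at 70 to 79 Mb, with a GC box in 57% and a TATA box in 8.59%. In these measures both stretches differed less from the listed coding genes than from the reference. A match is a string of letters and not a bound site.

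The genes are described next by role, from lists of genes of this chromosome. Every listed gene of the chaperone, metabolic, traffic, kinase, RNA, transcription, DNA repair and motor lists lies at 70 to 79 Mb or in the distal stretch, where 30 of 30 and 23 of 23 tested genes fell whatever their role, against 51.3% of all tested genes. Counts of genes that fell in these lists therefore restate position and are not results about a role. The lists do not hold every gene of a role. Some genes elsewhere on the chromosome are on none of them, such as STXBP6, ABHD4, DIO2 and PTPN21 (higher in PC9-GR) and OTUB2 (lower). Median log2 ratios of these lists in the authors' deposited table ran from -1.98 (transcription) to -1.55 (kinases), beside medians of -1.77 and -1.73 in the 2 stretches. All listed coding genes with a lower ratio had a median of -1.45. The median of 1.02 over all listed genes mixes both directions and lies at the edge of the table's threshold.

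Of the 4 genes on the chaperone list 3 are in the table, 1 at 70 to 79 Mb and 2 distal, and all fell. HSP90AA1 (ENSG00000080824, table locus 102547074 to 102771537 on chromosome 14, build not named), whose promoter holds the heat shock units shown above, was the highest listed gene in both lines. It measured 4882.9, 5040.7 and 5329.4 FPKM in the PC9 libraries and 1281.6, 956.4 and 1197.7 in the PC9-GR libraries, 4.44-fold lower. The lowest PC9 library was thus well above the highest PC9-GR library. AHSA1, which activates the ATPase of HSP90, measured 613.1, 659.4 and 616.4 FPKM in PC9 and 184.3, 149.9 and 175.7 in PC9-GR, 3.7-fold lower, and went from rank 3 to rank 10 of the listed genes. BAG5, a regulator of the HSP70 chaperone, measured 54.8, 60.7 and 67.7 against 15.8, 14.7 and 17.3 FPKM, 3.83-fold lower. The chaperone and its activator lie in different stretches and were lower by similar folds.

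**Figure D4:**
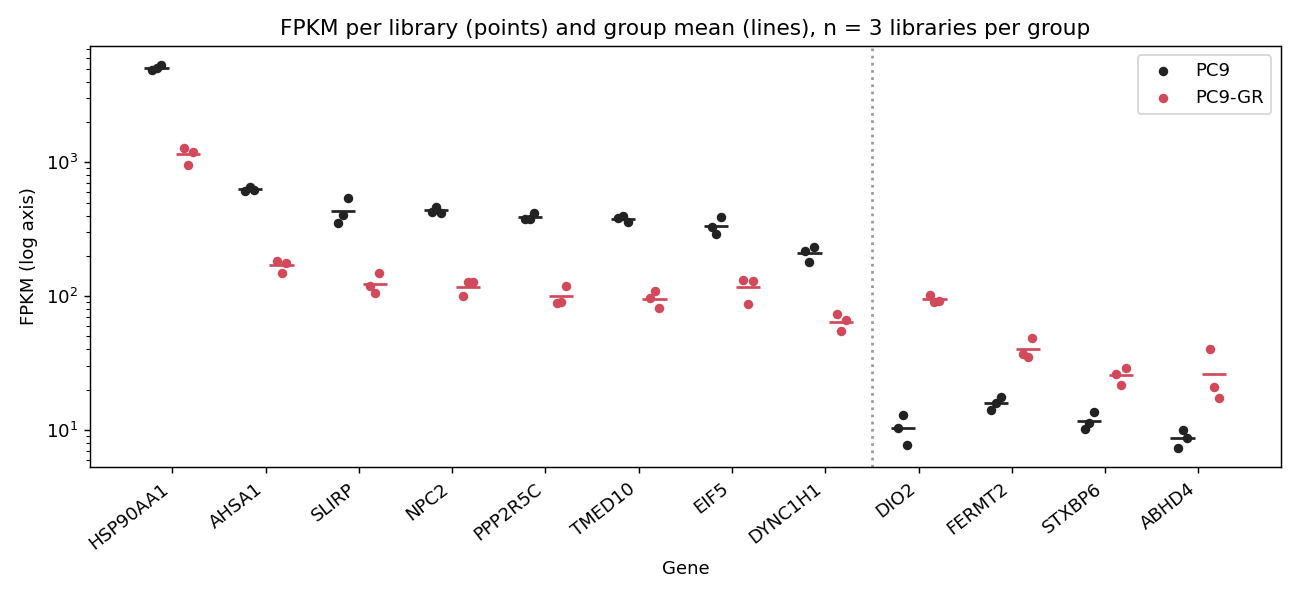
FPKM in each library (points, logarithmic axis) with the group mean (lines, n = 3 per group) for 8 abundant genes of both stretches, left of the dotted line, and 4 genes that were higher in PC9-GR elsewhere on the chromosome, right of it. No gene has overlapping groups. HSP90AA1 stands at 5084.4 FPKM in PC9 and 1145.2 in PC9-GR, and DIO2 at 10.4 and 94.7.

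Of 26 mitochondrial and metabolic genes on the list for this chromosome, 10 are in the table, 8 at 70 to 79 Mb and 2 distal, and all fell as every tested gene there did. DLST, the succinyltransferase subunit of the 2-oxoglutarate dehydrogenase complex, measured 140.6, 137.2 and 131.3 FPKM in PC9 and 34.7, 33.9 and 33.0 in PC9-GR, 4.02-fold lower and with the libraries of each line close together. CKB, the brain-type creatine kinase, measured 162.8, 119.6 and 135.1 against 21.4, 31.8 and 22.3 FPKM, 5.53-fold lower. SLIRP, which stabilizes mitochondrial messenger RNA, measured 354.2, 400.4 and 539.9 against 118.2, 105.4 and 148.1 FPKM, 3.48-fold lower, with the third PC9 library above the other two. Its levels varied more between libraries than those of DLST, and its groups were still apart. SPTLC2, a subunit of serine palmitoyltransferase in sphingolipid synthesis, had the largest fold at 70 to 79 Mb among genes above the floor: 41.8, 32.4 and 33.3 FPKM in PC9 and 7.01, 8.17 and 7.85 in PC9-GR.

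The other 6 metabolic genes covered a wide range of levels. APOPT1 (now COA8), a factor for cytochrome oxidase, measured 100.5 ± 3.17 FPKM in PC9 and 24.7 ± 1.93 in PC9-GR (SD, n = 3), 4.06-fold lower. GSTZ1, which acts in tyrosine breakdown, was 4.22-fold lower, from 19.6 ± 2.16 to 4.65 ± 0.114 FPKM. ISCA2, of iron-sulfur cluster assembly, was 3.29-fold lower, from 25.4 ± 0.93 to 7.72 ± 1.18. ADCK1, a mitochondrial protein of the atypical kinase family, and ALDH6A1, an enzyme of valine breakdown, were 3.36-fold and 3.0-fold lower. ACYP1, an acylphosphatase, was the least changed of the 10, at 19.2 ± 1.68 and 7.81 ± 0.85 FPKM, 2.45-fold lower.

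Vesicle and lysosome genes gave 6 listed of 17, 4 at 70 to 79 Mb and 2 distal, which all fell with their stretches. NPC2, the soluble lysosomal protein that hands cholesterol to NPC1, measured 428.6, 464.9 and 417.8 FPKM in PC9 and 99.4, 127.5 and 126.9 in PC9-GR, 3.71-fold lower. TMED10, a cargo receptor of the early secretory pathway, measured 380.4, 399.0 and 358.7 against 96.8, 109.6 and 81.1 FPKM, 3.96-fold lower. In both genes all PC9 libraries were far above all PC9-GR libraries, and their ranks in the table went from 6 to 20 and from 11 to 28. ZFYVE21, a FYVE-domain protein of endosomes and cell adhesions, was 3.32-fold lower, from 51.4 ± 3.85 to 15.5 ± 1.2 FPKM. VIPAS39, a partner of VPS33B in sorting to lysosomes, and TMED8, a relative of TMED10, were 3.45-fold and 2.9-fold lower. TECPR2, which acts in autophagy and export from the endoplasmic reticulum, measured 10.4, 11.9 and 8.79 FPKM against 4.99, 5.63 and 3.92 and had the smallest fold of the distal stretch, 2.14. With libraries scaled to equal totals its log2 difference was -0.26, with an adjusted p of 0.149 in limma.

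Among kinases and signalling adaptors, 7 of 19 are listed, 1 at 70 to 79 Mb and 6 distal, and all fell with their stretches. PPP2R5C, a regulatory subunit of protein phosphatase 2A, was the most abundant, at 379.0, 374.8 and 417.7 FPKM in PC9 and 89.0, 90.1 and 119.1 in PC9-GR, 3.93-fold lower. MARK3, a kinase of microtubule-associated proteins and polarity, measured 125.2, 137.2 and 142.1 against 40.1, 38.1 and 42.4, 3.36-fold lower. CDC42BPB, an effector kinase of CDC42 that acts on myosin, measured 99.9, 91.7 and 88.2 against 25.9, 27.5 and 27.2, 3.47-fold lower. These 3 genes differed by similar folds. NEK9, a mitotic kinase at 70 to 79 Mb, was 3.01-fold lower, from 38.5 ± 2.58 to 12.8 ± 1.38 FPKM. TNFAIP2, a TNF-induced gene, and TRAF3, an adaptor of TNF-receptor and interferon signalling, were 2.65-fold and 2.35-fold lower. MOK, a MAP-kinase relative, was 2.24-fold lower.

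The list of RNA processing and translation has 5 of its 11 genes in the table, 3 at 70 to 79 Mb and 2 distal, which fell like the other tested genes there. EIF5, which triggers GTP hydrolysis in translation initiation, measured 326.0, 292.5 and 387.0 FPKM in PC9 and 132.3, 87.3 and 129.9 in PC9-GR, 2.88-fold lower. EIF2B2, a subunit of the exchange factor of eIF2, measured 70.5, 84.9 and 82.1 against 18.4, 17.4 and 17.9, 4.43-fold lower. The pair acts at neighbouring steps of initiation, from different stretches. FCF1, needed for the small ribosomal subunit, was 3.29-fold lower, from 187.1 ± 7.49 to 56.9 ± 2.86 FPKM. YLPM1, a nuclear protein that binds protein phosphatase 1, and TRMT61A, which methylates transfer RNA, were 3.3-fold and 4.63-fold lower.

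Genes of transcription and chromatin gave 5 listed of 24, 4 at 70 to 79 Mb and 1 distal, of which 4 fell and PROX2 was not tested. RCOR1, the CoREST corepressor that joins LSD1 to histone deacetylases, measured 100.8, 111.0 and 99.5 FPKM in PC9 and 27.5, 22.8 and 30.0 in PC9-GR, 3.87-fold lower. IRF2BPL, a nuclear regulator of transcription, and KIAA1737 (now CIPC), which inhibits CLOCK, were 3.92-fold and 3.52-fold lower. LIN52, of the MuvB complex that controls cell-cycle genes, had the smallest fold at 70 to 79 Mb: 11.0, 11.4 and 10.0 FPKM against 4.82, 4.88 and 4.64. PROX2, a homeobox gene, measured 0.422, 0.399 and 0.467 FPKM in PC9, and in PC9-GR it was listed at the floor of 0.001 in 2 libraries and at 0.0122 in the other, so no fold is given. The Notch list had 1 of its 5 genes in the table, SNW1, which acts in splicing as well as beside the Notch effector, and it fell 2.89-fold, from 177.1 ± 7.68 to 61.4 ± 5.24 FPKM.

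DNA repair, cell cycle and apoptosis genes gave 4 listed of 13, 3 at 70 to 79 Mb and 1 distal, and these fell like the tested genes around them. AREL1, a ubiquitin ligase that opposes apoptosis, measured 76.2, 74.6 and 67.0 FPKM in PC9 and 16.7, 14.8 and 17.2 in PC9-GR, 4.47-fold lower. MLH3, a mismatch repair protein, measured 15.3, 16.4 and 18.7 against 4.27, 3.91 and 5.2, 3.77-fold lower. XRCC3, which acts in homologous recombination, measured 40.1, 39.7 and 37.5 against 14.7, 13.2 and 9.51, 3.14-fold lower. Each group of libraries was tight beside the gap between the lines. ALKBH1, a demethylase of nucleic acids, was 3.36-fold lower, from 16.7 ± 1.02 to 4.98 ± 0.228 FPKM.

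Of 16 motor, cilia and cytoskeleton genes 4 are listed, 1 at 70 to 79 Mb and 3 distal, of which 3 fell and CRIP1 was not tested. DYNC1H1, the heavy chain of cytoplasmic dynein, measured 217.2, 179.8 and 233.6 FPKM in PC9 and 73.0, 54.4 and 66.2 in PC9-GR, 3.26-fold lower. KLC1, a light chain of kinesin-1, measured 126.4, 134.8 and 134.3 against 42.7, 44.5 and 48.3, 2.92-fold lower. Subunits of the motors for both directions of microtubule transport were thus lower in PC9-GR. IFT43, of the transport complex in cilia, was 3.48-fold lower, from 31.2 ± 1.58 to 8.96 ± 1.69 FPKM. CRIP1 was near the limit of the filter, at 1.26, 0.786 and 1.22 FPKM against 0.511, 0.399 and 0.322.

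The growth factor and matrix genes did not share a direction. Of 10 on the list 4 are in the table: BMP4 fell, FLRT2 rose, and PGF and SMOC1 were not tested. BMP4, a ligand of the TGF-beta family, lies outside both stretches and measured 10.5, 20.0 and 15.0 FPKM in PC9 and 4.78, 6.77 and 3.62 in PC9-GR, 3.0-fold lower. FLRT2, a membrane protein that binds FGF receptors and unc5 receptors, measured 1.21, 1.38 and 2.17 against 3.38, 3.02 and 3.78, 2.14-fold higher. PGF, the placental growth factor, measured 1.59, 0.898 and 0.71 FPKM against 0.421, 0.382 and 0.205. SMOC1, a matrix protein that modulates BMP signalling, measured 2.01, 0.473 and 1.62 FPKM in PC9, and the table lists it at its floor in all 3 libraries of PC9-GR.

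The remaining genes of the stretches have no list. At 70 to 79 Mb, GPATCH2L, whose product has a G-patch domain, was 2.43-fold lower, from 44.2 ± 2.39 to 18.2 ± 1.4 FPKM, and TTC9 was 3.31-fold lower, from 2.75 ± 0.244 to 0.831 ± 0.11. POMT2, an enzyme of protein O-mannosylation, ANGEL1 and ZC2HC1C, named here after their values were seen, were 3.74-fold, 4.24-fold and 3.0-fold lower. NOXRED1, also outside the naming rule, stayed under 1 FPKM in all 6 libraries. In the distal stretch the widest folds were those of RP11-796G6.2 (9.9), WDR20 (6.27) and AMN (5.58). RP11-796G6.2 measured 3.37, 2.52 and 3.73 FPKM in PC9 and 0.299, 0.467 and 0.206 in PC9-GR. WDR20, a subunit of deubiquitinating complexes, measured 32.4, 35.8 and 40.0 against 6.48, 4.28 and 6.49, and AMN, amnionless of the vitamin B12 receptor, 4.25, 3.81 and 4.24 against 0.46, 1.05 and 0.69. Each of these 3 genes was low in PC9-GR or shares a locus with another listed gene. ANKRD9 and RP11-73M18.2, outside the rule, were 2.54-fold and 3.09-fold lower.

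Outside both stretches, 13 genes had higher levels in PC9-GR, and all 11 of these that were tested were called higher. DIO2 (ENSG00000211448, table locus 80663872 to 80921812), the deiodinase that turns thyroxine into its active form, had the highest level among them in PC9-GR. It measured 10.4, 12.9 and 7.73 FPKM in PC9 and 101.3, 90.2 and 92.6 in PC9-GR, 9.14-fold higher, and moved from rank 363 to rank 29 of the listed genes. It lies directly past the stretch at 70 to 79 Mb among the genes of the set. FERMT2, kindlin-2 of integrin activation, measured 14.2, 16.0 and 17.6 against 37.0, 35.0 and 48.9, 2.53-fold higher. RP11-47I22.3, the nearest gene of the set before SMOC1, measured 7.13, 8.74 and 10.2 against 32.8, 30.5 and 42.5, 4.05-fold higher. Among the genes of the set, those on either side of the stretch at 70 to 79 Mb were thus higher in all 3 PC9-GR libraries than in any PC9 library. RP11-47I22.3 is not a close neighbour: its table locus ends at 62125414, and that of SMOC1 starts at 70320847. Before SMOC1 the longest run of unlisted coding genes holds 58, from PRKCH to SLC10A1.

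ABHD4, an enzyme of N-acyl phospholipid breakdown, measured 7.32, 10.0 and 8.69 FPKM in PC9 and 40.4, 21.1 and 17.2 in PC9-GR, 3.02-fold higher, with the first PC9-GR library about as high as the other two together. STXBP6, a SNARE-binding protein also called amisyn, measured 10.1, 11.2 and 13.6 against 26.2, 21.7 and 28.8, 2.2-fold higher. EGLN3, an oxygen-sensing prolyl hydroxylase, measured 6.04, 4.5 and 4.53 against 10.0, 10.5 and 9.77, 2.01-fold higher. Except for the first library of ABHD4, levels in PC9-GR were close together for these genes. ARHGEF40, a guanine nucleotide exchange factor, TTC7B, of the complex that places a phosphatidylinositol 4-kinase at the plasma membrane, TGM1, a transglutaminase of the epidermis, and PTPN21, a tyrosine phosphatase, were 3.35-fold, 2.44-fold, 2.07-fold and 1.98-fold higher from levels between 0.827 and 2.12 FPKM in PC9. PTPN21 was not called after quantile normalization, with a log2 difference of 0.35 and an adjusted p of 0.117 in limma. The largest ratios were those of genes near the bottom of the scale, which were not tested: LRFN5, a synaptic adhesion protein, measured 0.0139, 0.0147 and 0.0442 FPKM against 0.959, 0.313 and 0.282, and C14orf37 (now ARMH4) 0.0354, 0.0312 and 0.0654 against 0.393, 1.0 and 0.526.

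The 4 genes of the rest that were lower in PC9-GR were BMP4, TC2N, OTUB2 and BDKRB2. The first 3 were called lower, and BDKRB2 was not tested. TC2N and OTUB2 are named after their values were seen, to spell out this count. TC2N, a C2-domain protein, measured 10.1, 8.2 and 9.24 FPKM against 4.24, 4.27 and 4.32, 2.15-fold lower, and with libraries scaled to equal totals it was not called (log2 difference -0.26, adjusted p 0.0881 in limma). OTUB2, a deubiquitinase, measured 1.95, 1.78 and 1.89 against 0.57, 0.485 and 0.492, 3.63-fold lower. BDKRB2, the bradykinin receptor B2, was low in both lines, at 0.315, 0.358 and 0.365 FPKM against 0.0421, 0.0537 and 0.0323. Among the genes of the set, TC2N, OTUB2 and BDKRB2 follow one another between the genes that rose and the distal stretch. BMP4 lies before SMOC1. The run does not hold outside the set: SLC25A29, left out by the rule, lies between BDKRB2 and the distal stretch and was 3.57-fold higher in PC9-GR.

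The weight of the set among the most abundant listed genes was smaller in PC9-GR. By mean FPKM, 5 of the 10 highest listed genes in PC9 belong to the set, 8 of the 20 highest and 15 of the 50 highest. In PC9-GR the counts were 2, 4 and 10. HSP90AA1 was first in both lines, SLIRP went from rank 7 to 19, PPP2R5C from 10 to 26, EIF5 from 13 to 21 and DYNC1H1 from 18 to 45. No member of the protease inhibitor cluster of this chromosome, of 9 SERPINA genes looked for, is in the table.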

How the data were processed

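RNA of 3 PC9 and 3 PC9-GR cultures was sequenced from strand-specific Agilent SureSelect libraries, per the labels' protocols. The submitters' processing notes name TopHat and Cufflinks. Versions, build, annotation and strand setting were not given in the sources used here. Per the file headers, the values of the deposited table are FPKM (libraries and groups), a coefficient of variation that was treated as a signal column and not used, a ratio (PC9-GR over PC9), the log2 of that ratio, and a p-value and q-value for each gene. Its lowest library value, 0.001 FPKM, was read as its floor. No read counts are in the table, so depth, counting intervals and the limit set by a count of 0 cannot be given. The cultures were independent per the series' design text, and the 3 libraries of a line were used as replicates.

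FPKM as deposited was put on the scale log2(FPKM + 1). Genes that reached 1 FPKM in 3 or more libraries (1207 of 1705) were tested with limma 3.58.1 in R 4.3.3 (two-sided moderated test, variance trend, group as the only term), with Benjamini-Hochberg adjustment over all of them and a threshold of 0.05. The step was run on simulated data in which most genes were unchanged. Every gene of the table was listed as changed, so that run does not stand for this table. Folds are ratios of mean FPKM, with no fold where libraries were at the floor. The alternatives were another pseudocount, other filters, 3 scalings, no trend, a replicate block, leaving out each library, wider windows and inclusion of the genes left out.

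Positions are those of the deposited table. None of the genes of the set (0) has its GENCODE 29 (GRCh38) position inside its table locus, so GENCODE 29 served only for gene order, strand and neighbours, and promoters are from RefSeq on GRCh38.p14. Tables and figures were made with Python 3.11.15, pandas 2.3.3, scipy 1.17.1 and matplotlib 3.10.9.

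The set of genes, the stretches, the lists and the tests were chosen with earlier results of these data known. Genes were named by a rule: those in a list, those higher in PC9-GR, the first and last of each stretch, and, in each stretch and in the rest, the 3 largest and 3 smallest absolute ratios and the 3 highest PC9 levels. This named 66 of 75 genes.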

Additional observations from a re-analysis of the deposited data

How the results depend on the processing

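No gene of the set reversed its direction under the alternatives run, though HSP90AA1 had a difference of 0 after quantile normalization. Of 1050 alternative values for the 75 genes, 1029 kept their side of the threshold, 13 lost a call, 8 gained one and 0 reversed. Under a filter at 5 FPKM the genes called higher were 6 instead of 11, both in the set and in the rest of the chromosome, because fewer genes were tested (ARHGEF40, TGM1, FLRT2, PTPN21 and TTC7B drop out, as do TTC9, OTUB2, RP11-796G6.2 and AMN on the lower side). Over the whole table that filter left 629 genes, of which 234 were called higher and 393 lower, against 584 and 619. Without a filter SMOC1, PROX2, PGF, NOXRED1, CRIP1 and BDKRB2 were called lower and LRFN5 and C14orf37 higher. With equal library totals 586 listed genes were called higher and 433 lower, and TECPR2 and TC2N were not called. Quantile normalization sets the highest gene of each library to one value, and that gene is HSP90AA1, so its call is lost there.

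The median log2 difference at 70 to 79 Mb was -1.78 with a pseudocount of 0.1, -0.91 with equal totals, -1.9 with median-ratio scaling and -1.25 after quantile normalization. In the distal stretch it was -0.91, -1.9 and -1.07 under these 3 scalings. In the rest it was 1.13 with the pseudocount of 0.1, and 1.34, 0.56 and 0.57 under the scalings. The median of all listed genes was 0.29 as deposited, 0.87 with the pseudocount of 0.1, and 0.49, 0.22 and 0.16 under the scalings. Relative to it, the 3 medians were -1.94, -1.96 and 0.48 as deposited and -1.4, -1.41 and 0.85 with equal totals.

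Leaving out each library in turn gave 56 genes called lower and 11 higher each time, with 30 at 70 to 79 Mb, 23 in the distal stretch, and 3 lower and 11 higher in the rest. The medians then ran from -1.65 to -1.6, from -1.69 to -1.62 and from 0.68 to 0.84. With the replicate block, 56 genes of the set were called lower and 11 higher, and 619 and 586 over the table. Deviations of libraries with the same number correlated at -0.1, 0.08 and 0.16, so the numbers were not taken to pair the cultures. Depth is unknown, and values under 1 FPKM are the least certain.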

Other observations

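The listed rows of chromosome 14 outside the set had these values. At 70 to 79 Mb, 5 rows that are not coding in the table were all lower in PC9-GR without overlap, as were the 3 such rows of the distal stretch. Among them RP11-488C13.5, a lincRNA, measured 4.76, 5.34 and 5.36 FPKM in PC9 and 1.31, 1.33 and 1.31 in PC9-GR, 3.92-fold lower. RP11-950C14.3, which shares its table locus with EIF2B2, measured 23.1, 24.5 and 35.5 against 6.34, 5.51 and 8.42, 4.1-fold lower. Of the 2 such rows elsewhere, RP11-529H20.6 was 7.4-fold lower, and a lincRNA before SMOC1 had overlapping groups (2.88, 1.14 and 1.09 against 2.45, 4.97 and 6.37 FPKM). These rows were named after their values were seen. They were listed on the same contrast as the set, and 46.6% of all listed genes were lower without overlap, so their direction is a description.

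Of the coding genes left out of the set, the 2 at 70 to 79 Mb were lower, and elsewhere 1 was lower and 5 were higher. These genes were listed on the same contrast as the set. ABCD4, a transporter of vitamin B12 in lysosomes, lies at 70 to 79 Mb and measured 20.3, 19.8 and 17.6 FPKM in PC9 against 6.4, 8.29 and 7.17 in PC9-GR, 2.64-fold lower. FOS, an immediate early transcription factor in the same stretch, varied more between PC9 libraries, at 7.64, 36.1 and 14.6 against 1.36, 4.87 and 2.82. Elsewhere FOXA1, a pioneer transcription factor, was 2.64-fold lower, and 5 genes were higher: SLC7A8, an amino acid transporter, by 20.5-fold from 0.25 ± 0.0443 to 5.13 ± 0.265 FPKM (SD, n = 3), and SLC25A29, MMP14, SLC38A6 and SLC7A7 by 3.57-fold, 2.4-fold, 2.33-fold and 2.2-fold.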
